A study of Mus musculus with 2 samples.

Results

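The replication-dependent histone genes were taken as the protein-coding genes of the GENCODE mouse annotation (build mm10, GRCm38.p6) whose symbols begin with Hist1h, Hist2h, Hist3h or Hist4h. They number 67 of 21884 protein-coding genes of unique symbol. The linker histone H1 has 6 members, H2A 18, H2B 18, H3 12 and H4 13. The Hist1 cluster on chromosome 13 holds 54 of them, the Hist2 cluster on chromosome 3 holds 10, Hist3 on chromosome 11 holds 2 (Hist3h2a and Hist3h2ba) and Hist4 on chromosome 6 holds 1 (Hist4h4).

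These genes supply the bulk of histone protein when DNA is copied. Their short transcripts mostly lack introns and end in a stem-loop instead of a poly(A) tail, and their transcription is coupled to S phase through NPAT, a cofactor gathered at histone locus bodies. Neurons of the adult cortex have left the cell cycle and draw mainly on variant histones made outside S phase.

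DNase-seq, which cuts the DNA of isolated nuclei with DNase I so that accessible stretches collect many cuts, was available for left cerebral cortex of male B6CASTF1/J mice, an F1 hybrid strain, aged 18 to 20 months. There is a single group of 2 libraries, biological replicates 1 and 2, with no control or treated samples, so no test between conditions was possible. Both libraries carry the same donor entry, separate animals are not stated, and the spread between them may therefore be technical. The reference is of C57BL/6J origin, and the 2 parental alleles are not separated in what follows.

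Replicate 1 had 73221 peaks in its main (shorter) list and replicate 2 had 111105, with 120015 and 178564 in the wider lists and 264450 and 385637 footprints, which are short protected stretches within open chromatin. Peak signals are printed as deposited, in units whose scaling the sources used here do not give. Read totals were not used, so depth is known only through these numbers of calls, and a missing peak means that none was called at this depth. Of 18 cortex markers, 11 had a promoter peak in both libraries (61.1%, near the 58.7% of all genes), including the neuronal genes Camk2a (4.28 in replicate 1 and 4.29 in replicate 2) and Syt1 (3.8 and 4.3). The microglial genes Cx3cr1 and Csf1r and the endothelial gene Cldn5 had one only in the wider list of replicate 2. Most neuronal markers of the list had a main-list peak in both libraries, and most glial, microglial and endothelial markers did not. The division was not complete, since a neuronal marker had no main-list peak and some glial markers had one in both libraries.

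The promoter sequences below carry the main contrasts. In H4 genes the capitals mark GTCCGC, the core of the H4 site II element that the factor HINFP is known to bind. Hist1h4c (chr13:23698455-23698574, minus strand) had the highest mean peak signal of the class, and Hist1h4m (chr13:21811626-21811745, plus strand) had the lowest of those with a peak in both libraries. Both stretches are the 120 bases before the annotated transcription start site (TSS), and that of Hist1h4m occurs 2 times in the genome.
Hist1h4c: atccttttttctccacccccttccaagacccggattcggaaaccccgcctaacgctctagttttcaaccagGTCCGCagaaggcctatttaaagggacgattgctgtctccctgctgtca
Hist1h4m: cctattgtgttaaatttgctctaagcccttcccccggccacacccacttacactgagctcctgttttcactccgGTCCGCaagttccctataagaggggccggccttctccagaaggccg

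The next 3 stretches lie between divergent H2A and H2B genes, read on the plus strand, with capitals on the octamer (ATTTGCAT, bound by POU factors), the CCAAT box (CCAAT) and the TATA box (TATAAA) on either strand. The first, Hist1h2ac and Hist1h2bc (chr13:23683949-23684198), had peaks in both libraries. The second, Hist1h2ap and Hist1h2br (chr13:21833508-21833770), had none and occurs 2 times in the genome. The third, the middle 300 bases between the testis genes Hist1h2ba and Hist1h2aa (chr13:23934159-23934458), occurs once and had no peak, although it holds 1 octamer, 4 CCAAT boxes and 2 TATA boxes.
Hist1h2ac-Hist1h2bc: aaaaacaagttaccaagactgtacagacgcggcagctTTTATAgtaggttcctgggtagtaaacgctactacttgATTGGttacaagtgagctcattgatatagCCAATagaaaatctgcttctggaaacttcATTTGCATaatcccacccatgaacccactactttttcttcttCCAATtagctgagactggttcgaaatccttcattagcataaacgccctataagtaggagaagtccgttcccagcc
Hist1h2ap-Hist1h2br: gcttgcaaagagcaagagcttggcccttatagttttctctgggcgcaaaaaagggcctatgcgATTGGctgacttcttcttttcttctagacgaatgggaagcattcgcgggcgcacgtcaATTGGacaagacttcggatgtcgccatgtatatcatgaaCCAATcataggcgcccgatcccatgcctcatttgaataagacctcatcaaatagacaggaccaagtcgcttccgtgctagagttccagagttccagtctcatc
Hist1h2ba-Hist1h2aa: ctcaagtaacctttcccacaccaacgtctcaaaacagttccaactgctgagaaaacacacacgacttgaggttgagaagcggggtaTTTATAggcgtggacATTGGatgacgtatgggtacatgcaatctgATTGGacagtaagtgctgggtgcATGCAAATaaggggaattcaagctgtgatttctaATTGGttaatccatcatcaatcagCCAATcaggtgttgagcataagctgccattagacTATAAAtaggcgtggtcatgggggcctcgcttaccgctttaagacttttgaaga

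For H1, the 120 bases before the TSS are shown for Hist1h1c (chr13:23738688-23738807, plus strand), which had a peak over its TSS in both libraries, and for the testis-specific linker histone gene Hist1h1t (chr13:23695694-23695813, plus strand), which had none. Capitals mark the H1 box (AAACACA) and the CCAAT box, and both promoters hold 1 of each.
Hist1h1c: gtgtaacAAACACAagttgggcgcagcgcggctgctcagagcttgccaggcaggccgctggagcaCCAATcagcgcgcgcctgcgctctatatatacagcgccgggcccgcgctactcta
Hist1h1t: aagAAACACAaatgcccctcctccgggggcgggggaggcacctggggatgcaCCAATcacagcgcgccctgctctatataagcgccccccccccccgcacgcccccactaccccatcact

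Most of the clustered histone genes were open in this tissue. A promoter peak, meaning a main-list peak within 1 kb of a TSS of the gene, was found at 54 of 67 members in replicate 1 (80.6%), against 60.7% of all protein-coding genes. Replicate 2 had one at 58 members (86.6%), against 61.2% of all genes. Both libraries had one at 54 members (80.6%), against 58.7%. In the wider lists the members with a peak numbered 57 in replicate 1 (all genes 65.0%), 59 in replicate 2 (66.0%) and 57 in both (63.3%), and 8 members had no peak in any of the 4 lists.

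All 5 classes held open genes. A peak in both libraries was found at 4 of 6 H1 genes, 14 of 18 H2A, 14 of 18 H2B, 10 of 12 H3 and 12 of 13 H4 genes, and in replicate 2 all 13 H4 genes had one. The nearest peak usually lay on the TSS itself: it covered the TSS at 43 of 54 members in replicate 1 and at 42 of 58 in replicate 2, and it lay within 100 bp at 53 and 56. The farthest nearest peak inside the 1 kb limit lay 350 bp from its TSS, that of Hist1h3f in replicate 1. The annotated TSS of Hist1h3f lies 433 bp before its first coding base. Just outside the limit in replicate 1 were peaks nearer to other members. The same Hist1h3f peak lay 1010 bp from the TSS of Hist1h2bh, and the peak on the TSS of Hist1h3b lay 1055 bp from that of Hist1h2ab.

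Because these genes are packed closely, neighbours often share peaks. The member promoters together held 70 distinct peaks in replicate 1 and 74 in replicate 2, of which 19 and 24 lay within 1 kb of more than 1 member. Of these peaks, 63 (90.0%) in replicate 1 and 58 (78.4%) in replicate 2 overlapped a peak of the other library by at least 1 bp. Members are therefore not independent of each other, and the counts above describe genes and not separate regions. Counting each peak only for the gene with the nearest TSS left 46 members with a peak in both libraries.

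**Figure D1:**
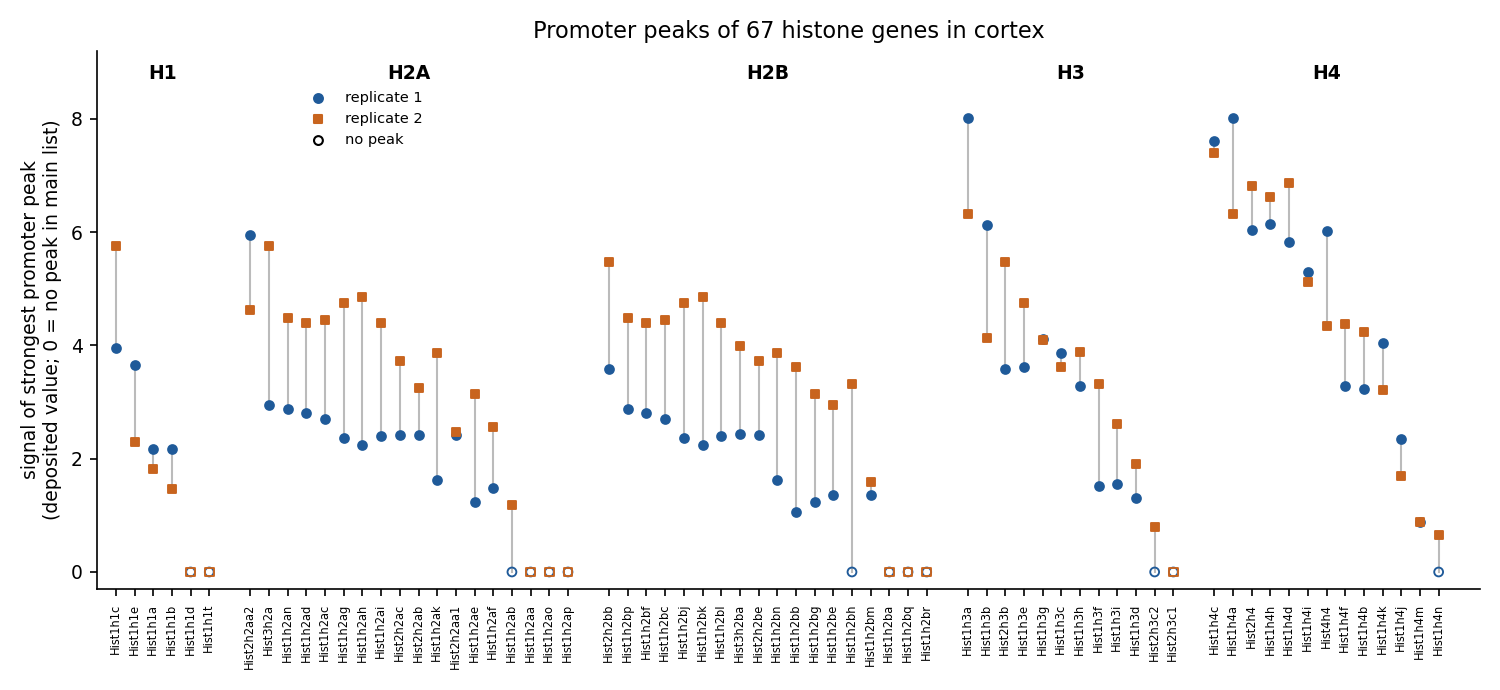
Signal of the strongest main-list promoter peak of each of the 67 genes (deposited value, vertical axis) by histone class, with circles for replicate 1, squares for replicate 2 and open symbols at 0 where no peak was called. H4 genes reach 8.02 and 7.4, while most H2A and H2B genes sit higher in replicate 2 than in replicate 1.

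The H4 genes, whose protein pairs with H3 in the nucleosome core, had the highest class median in replicate 1, 5.56, and one of 4.38 in replicate 2, next to 4.39 for H2A. The medians over all genes with a promoter peak were 3.82 and 2.88. Hist1h4c (chromosome 13, 23697635 to 23698454) had a signal of 7.61 in replicate 1 and 7.4 in replicate 2 (7.50 ± 0.146, SD, n = 2), at a peak across its TSS. Hist1h4a had 8.02 and 6.31 (7.16 ± 1.21), and Hist2h4 on chromosome 3 had 6.03 and 6.81 (6.42 ± 0.549). The range of Hist1h4a overlaps those of the other 2, so its place among them is not resolved. Both values of Hist1h4c lie above those of Hist2h4, with 2 libraries and no test. Hist4h4 (chromosome 6, 136801553 to 136804415), the sole gene of its cluster, had 6.02 and 4.34. At the lower end Hist1h4j had 2.34 and 1.69, from a peak 684 bp from its TSS, while the peak on its TSS had 1.67 and 1.41. Hist1h4m had 0.878 and 0.881. Hist1h4n, whose 120 bases before the TSS are identical to those of Hist1h4m, had a main-list peak only in replicate 2 (0.654) and a wider-list peak of 0.501 in replicate 1.

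Among H3 genes the class medians were 3.6 and 3.88. The highest value stood at Hist1h3a, 8.02 and 6.31, but this is the peak of its neighbour Hist1h4a, 906 and 986 bp from the TSS of Hist1h3a. The peak on the TSS of Hist1h3a itself had 1.24 and 1.82 (1.53 ± 0.41, SD, n = 2). Hist1h3b followed with 6.12 and 4.13 (5.12 ± 1.40), and Hist2h3b with 3.58 and 5.47, a peak 827 bp away that lies at Hist2h2bb, while its own nearest peak had 2.41 and 2.7. By the strongest peak within 1 kb, the lowest H3 genes called in both libraries were Hist1h3i (1.56 and 2.61) and Hist1h3d (1.31 and 1.9). By the nearest peak Hist1h3f was lowest (1.52 and 0.641), since its stronger replicate 2 peak (3.31) lies nearer to Hist1h2bh. With nearest peaks the class median of the mean signal fell from 3.93 to 2.78 in H3. Those of H2A and H2B were then 3.47 and 3.3. Hist2h3c2 had a peak in replicate 2 alone (0.787), and Hist2h3c1 only in the wider list of replicate 2 (0.354).

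The H2A genes had medians of 2.41 in replicate 1 and 4.39 in replicate 2. Hist2h2aa2 had 5.94 and 4.62 (5.28 ± 0.934, SD, n = 2), Hist3h2a on chromosome 11 had 2.94 and 5.75 (4.34 ± 1.99), and Hist1h2an had 2.88 and 4.48 (3.68 ± 1.13). The ranges of Hist3h2a and Hist2h2aa2 overlap, while both values of Hist1h2an lie below those of Hist2h2aa2. Hist1h2af (1.49 and 2.56) and Hist1h2ae (1.23 and 3.15) were lowest. In the Hist2 cluster Hist2h2ac had 2.41 and 3.73, Hist2h2aa1 had 2.41 and 2.47, and Hist2h2ab had 2.41 and 3.24. The replicate 1 value of Hist2h2ab belongs to the peak of Hist2h2ac, its own nearest peak having 1.33. Hist1h2ab had a main-list peak in replicate 2 alone (1.18), with 0.528 in the wider list of replicate 1.

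The H2B genes were close to the H2A genes, with medians of 2.38 and 3.98. Hist2h2bb had 3.58 and 5.47 (4.52 ± 1.34, SD, n = 2), Hist1h2bp had 2.88 and 4.48 (3.68 ± 1.13), and Hist1h2bf had 2.81 and 4.39 (3.60 ± 1.12). Hist1h2bp and Hist1h2bf share these peaks with the H2A genes Hist1h2an and Hist1h2ad. Hist3h2ba had 2.43 and 3.98, and Hist2h2be had 2.41 and 3.73, the first of these from the peak nearer to Hist2h2ac (its own nearest peak had 1.36). The lowest by the strongest peak near the TSS were Hist1h2be (1.35 and 2.94) and Hist1h2bm (1.36 and 1.59). The annotated TSS of Hist1h2be lies 35138 bp before its first coding base. Its replicate 1 value comes from a peak 497 bp from that TSS, also within 1 kb of the TSS of Hist1h1e (own nearest peak 1.19). Within 1 kb of the coding base of Hist1h2be the signals were 1.83 and 2.8. Hist1h2bh had a peak over its TSS in replicate 2 (3.31) and none in the main list of replicate 1, where the wider list gave 1.52.

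The linker histone genes had medians of 2.91 in replicate 1 and 2.06 in replicate 2. Hist1h1c had 3.95 and 5.75 (4.85 ± 1.28, SD, n = 2), but this peak lies 913 and 893 bp downstream of its TSS, inside the annotated gene, and the peak on the TSS had 2.95 and 2.14 (2.54 ± 0.573). Hist1h1e had 3.66 and 2.3, Hist1h1a 2.17 and 1.82, and Hist1h1b 2.17 and 1.47. In replicate 2 the value of Hist1h1e belongs to a peak 718 bp from its TSS, nearer to Hist1h2be (own nearest peak 1.91). That of Hist1h1a belongs to a peak 886 bp away on the TSS of Hist1h3a (own nearest peak 1.77). Hist1h1d, a somatic linker histone gene, counted as having no promoter peak because its annotated TSS lies 1828 bp before its first coding base. A peak lay within 1 kb of that coding base in both libraries, with signals of 1.98 and 2.5.

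Members without a promoter peak fell into distinct situations. The first holds Hist1h1t, Hist1h2ba and Hist1h2aa, which encode histones known from the testis. None of the 32-base words in their promoter windows (250 bp before to 50 bp after the TSS) occurs again in the genome, and none of the 300 bases was listed in either library's per-base file, which holds bases at a false discovery rate of at most 0.05. Their nearest main peaks lay 1667 bp from Hist1h1t in both libraries, 4667 and 4674 bp from Hist1h2ba, and 4361 and 4368 bp from Hist1h2aa. Members with and without a peak lay side by side: Hist1h1t (chromosome 13, 23695814 to 23696725) is followed among the members by Hist1h4c (23697635 to 23698454), the H4 gene with the highest mean signal.

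The second situation is that of Hist1h2bq, Hist1h2ao, Hist1h2ap and Hist1h2br, 2 divergent H2A and H2B pairs in which 100% of the words occur more than once in the genome and no base was listed. Whether reads that match several places were kept is not stated in the sources used here, so an open and a closed state cannot be told apart at these 4 genes. Together 10 members had over 50% of their words repeated (73.2% to 100%): besides these 4, they were Hist1h4m, Hist1h4n, Hist2h3c2, Hist2h3c1, Hist2h2aa2 and Hist2h2aa1. This split was chosen after the values were seen. The members nearest to it were Hist1h4k, with 41.6%, and Hist2h2aa1, with 73.2%. In an evenly spaced sample of 1091 protein-coding genes, 7.42% had over 50% repeated words.

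Of the 10 repeated members, 3 had a peak in both libraries, 2 in replicate 2 alone, 1 only in a wider list and 4 in none. Of the other 57, 51 had one in both libraries (89.5%), 2 in replicate 2 alone and 4 in none, namely the 3 testis genes and Hist1h1d. Among these 57, every H3 gene (10) and every H4 gene (11) had a peak in both libraries. The values below 1 at Hist1h4m, Hist1h4n and Hist2h3c2 are all from repeated windows. Repeated words do not go with low values throughout, since Hist2h2aa2 (88.1% repeated) had the highest mean signal of the H2A genes. The part of repeated sequence in these values was not tested.

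**Figure D2:**
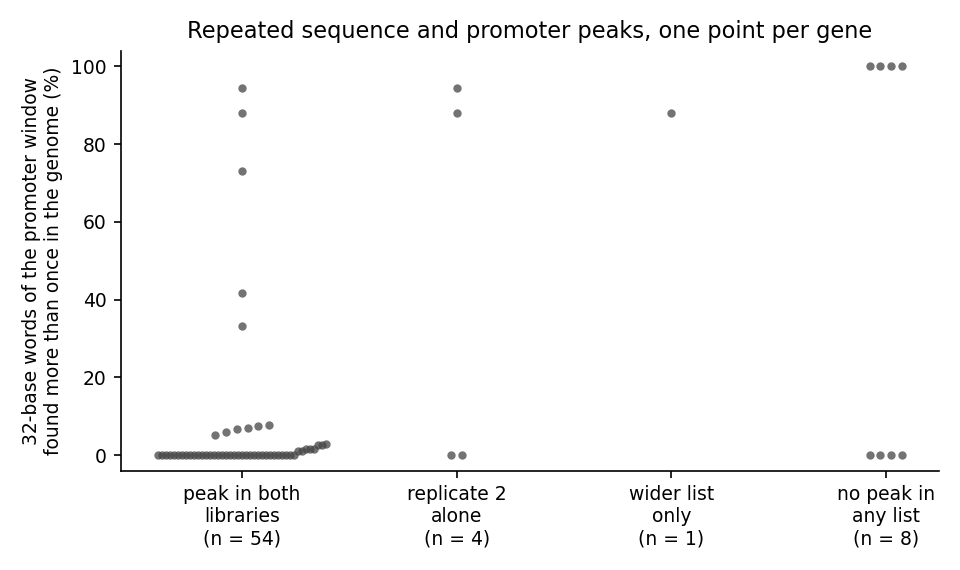
Share of 32-base words of each gene's promoter window that occur more than once in the genome (vertical axis, %) for the 67 genes, by where a promoter peak was called. Of the 8 genes with no peak, 4 stand at 100% and 4 at 0.

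Many histone promoters had a higher signal in replicate 2, while most genes had a lower one. Over the 12840 genes with a promoter peak in both libraries, the signal in replicate 2 minus that in replicate 1 had a median of -0.32 on the log2 scale, and 24.5% of genes were higher in replicate 2. At the 54 histone genes the median was 0.58, with 40 higher in replicate 2. The medians were highest in H2A (0.75, 13 of 14 genes higher in replicate 2) and H2B (0.80, 14 of 14). H3 genes had a median of 0.32 (6 of 10), H4 genes -0.02 (6 of 12) and H1 genes -0.41 (1 of 4).

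With the peak nearest the TSS in place of the strongest, the medians were 0.83 for H2A, 0.97 for H2B, 0.20 for H3, -0.02 for H4 and -0.51 for H1. The promoter windows of the members were poorer in G and C than most (median 45.7%, against 55.7% over all genes), and the library difference of all genes varied with this content. Among genes with 40 to 45% G and C, the median was -0.18 over all 449 genes, with 36.5% higher in replicate 2, and 0.99 over the 14 H2A and H2B genes, all higher in replicate 2. Between 45 and 50%, it was -0.16 over 994 genes (37.9% higher in replicate 2) and 0.64 over the 9 H2A and H2B genes, again all higher. These members share peaks, and with 2 libraries of 1 group no test was made. Whether the libraries differ in the animals, the cells or the handling cannot be told apart here.

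**Figure D3:**
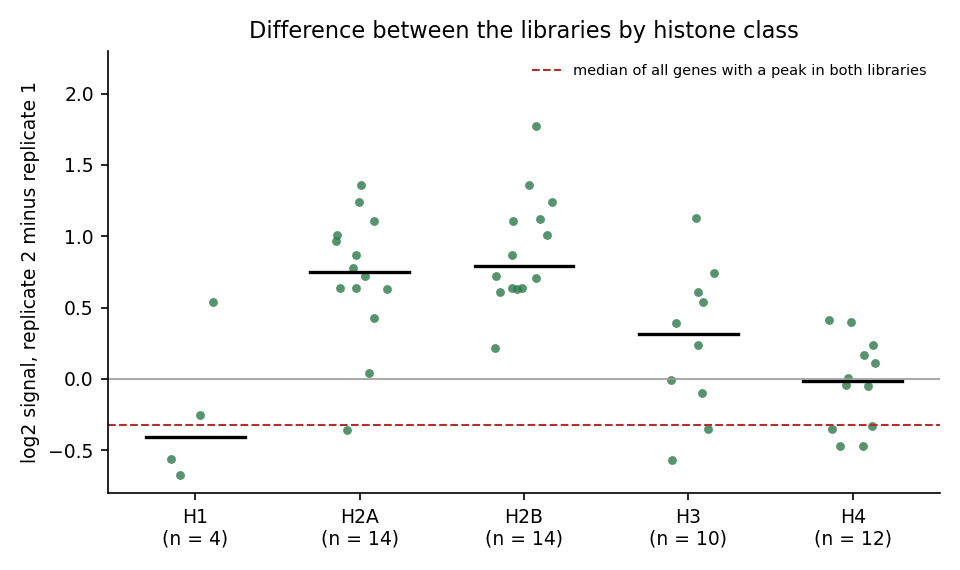
Difference in log2 promoter peak signal, replicate 2 minus replicate 1 (vertical axis), for the 54 genes with a peak in both libraries, by class, 1 point per gene and a bar at the class median. The dashed line is the median of all genes (-0.32), which lies below 13 of the 14 H2A genes and all 14 H2B genes.

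Many H2A and H2B genes form divergent pairs, transcribed away from a common stretch of DNA. The annotation holds 12 such pairs, with 176 to 306 bp between the TSSs (median 274.5). In 9 of the 12 a peak lay between the TSSs in both libraries. The pair Hist1h2ac and Hist1h2bc, printed above, had 2.7 in replicate 1 and 4.44 in replicate 2, and its replicate 2 peak (chr13:23683921-23684260) spanned both TSSs. The pair Hist1h2ah and Hist1h2bk had 2.24 and 4.86, and Hist2h2ac and Hist2h2be had 2.41 and 3.73. All 9 were higher in replicate 2, with a median log2 difference of 0.87. The 3 pairs without a peak were the 2 repeated pairs (Hist1h2bq with Hist1h2ao and Hist1h2ap with Hist1h2br) and the testis pair (Hist1h2ba with Hist1h2aa). A further pair, Hist1h2bh and Hist1h3f, lies 660 bp apart and had a peak between its TSSs in replicate 2 alone.

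Footprints were slightly denser in the histone promoter peaks than in those of all genes. Members had 1.47 footprints per 100 bp of peak in replicate 1 and 1.48 in replicate 2, against 1.27 and 1.21 over all genes, and footprints covered 20.1% and 19.8% of the peak bases, against 17.5% and 16.8%. A peak shared by several members was counted for each of them. This density was not particular to the members. The S phase and proliferation genes described below had 1.66 and 1.63, the variant histone genes 1.49 and 1.1, and the histone expression factors 1.34 and 1.22. By class the values ran from 1.32 (H2B) to 1.73 (H3) in replicate 1 and from 1.27 (H1) to 1.62 (H4) in replicate 2, and the order of the classes changed between the libraries. Hist1h4h had the most footprints in replicate 2 among H4 genes, 14, against 7 in replicate 1.

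Footprints were placed by distance from the first coding base. The most covered base lay at similar positions in the 2 libraries for H4, H2B and H3 genes. In H4 genes the base covered in most genes lay 66 bp before the coding start in replicate 1 (8 of 13 genes) and 70 bp before it in replicate 2 (9 of 13). In H2B genes it lay 50 and 52 bp before (9 and 10 of 18), and in H3 genes 102 and 106 bp before (7 of 12 and 6 of 12). In H2A genes it moved from 139 to 175 bp (8 of 18 in both), and in H1 genes from 51 to 64 bp (3 of 6 in both). These positions were picked as the most covered and are a description only, since paired genes read some of the same footprints. No number of genes expected from scattered footprints was computed, so recurrence within a class was not tested.

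**Figure D4:**
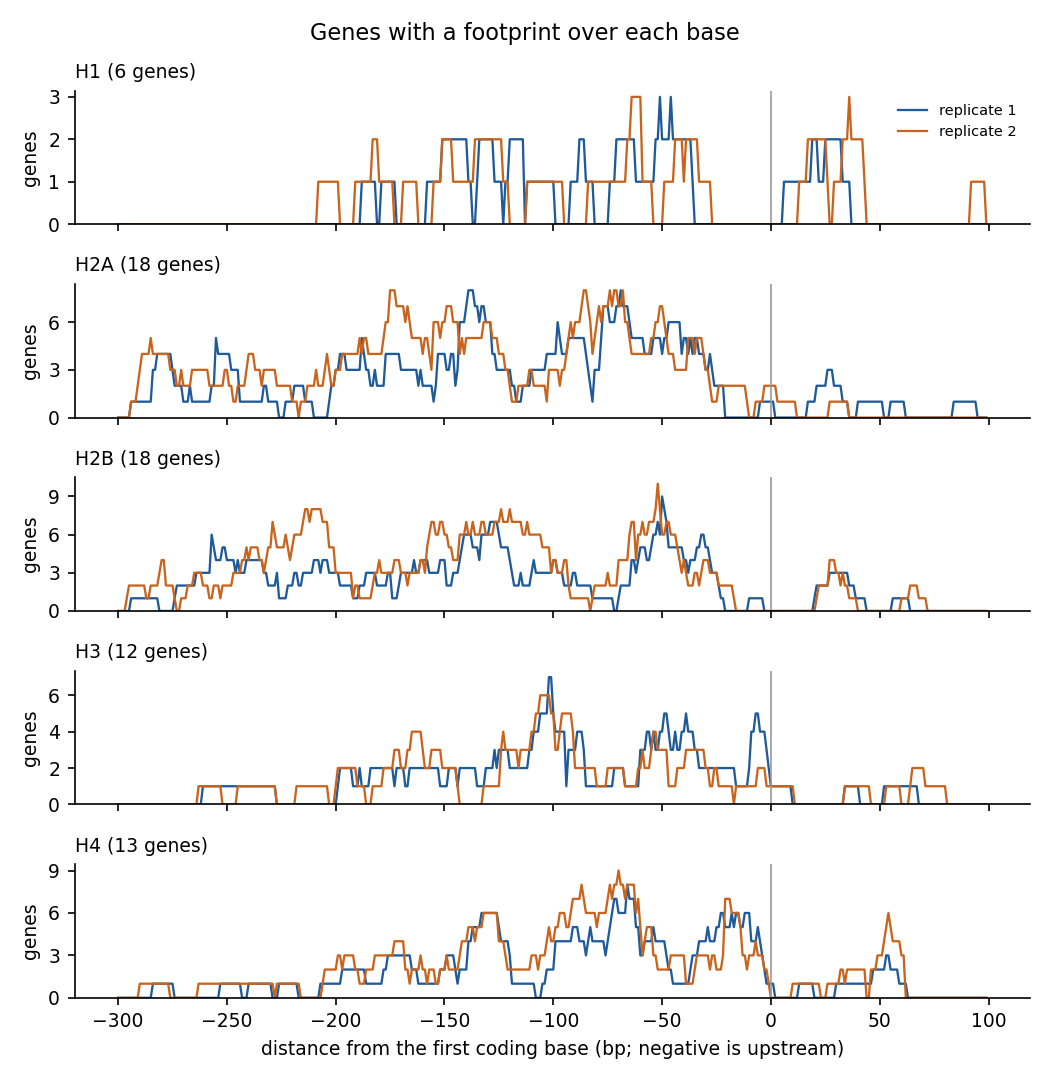
Number of genes of each class with a footprint over each base (vertical axis) by distance from the first coding base (horizontal axis, bp, negative upstream), for replicate 1 and replicate 2. In H4 genes the highest points lie 66 and 70 bp upstream, and in H2B genes 50 and 52 bp upstream.

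Short motifs known from histone promoters were searched on both strands of the 300 bp window around each TSS and set beside the same search over all 21884 promoters. CCAAT, read by NF-Y, was in all 18 H2A and all 18 H2B promoters, in 11 of 12 H3, 5 of 6 H1 and 4 of 13 H4 promoters, against 38.1% of all promoters. TATAAA was in 37 of 67 members (55.2%), against 13.0%. ATTTGCAT, the octamer, was in 7 H2A and 8 H2B promoters and in no other class, against 1.66%. The windows of divergent H2A and H2B genes share bases, so 1 match can count for both genes. These 15 promoters held 10 distinct octamers. AAACACA was in 4 of 6 H1 promoters and 9 members in all (13.4%), against 6.38%. GTCCGC was in 9 of 13 H4 promoters and 23 members in all (34.3%), against 11.5%. GGGCGG, the GC box, was in 31 members (46.3%), against 44.8%. TGACGTCA, the cyclic AMP response element, was in 4 members (5.97%) against 2.40%, and the E2F sequences TTTCCCGC and TTTGGCGC were in 3 (4.48%) against 2.07%. Some of these matches lie at or after the TSS, among them GTCCGC in 7 H2B genes, GGGCGG in 8 H2B genes and the E2F sequences in 2 H4 genes. In the 300 bp before the first coding base, GTCCGC was in 15 members (22.4%, all promoters 10.4%), with 9 of 13 H4 genes and 1 H2B gene. In the same window GGGCGG was in 18 members (26.9%, all promoters 33.1%), and the E2F sequences were in 1 (1.49%, all promoters 1.61%). The member windows had a median G and C content of 45.7%, against 55.7% over all genes. The part of this content in the motif shares was not tested. A match is a description of the letters and not evidence of binding.

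**Figure D5:**
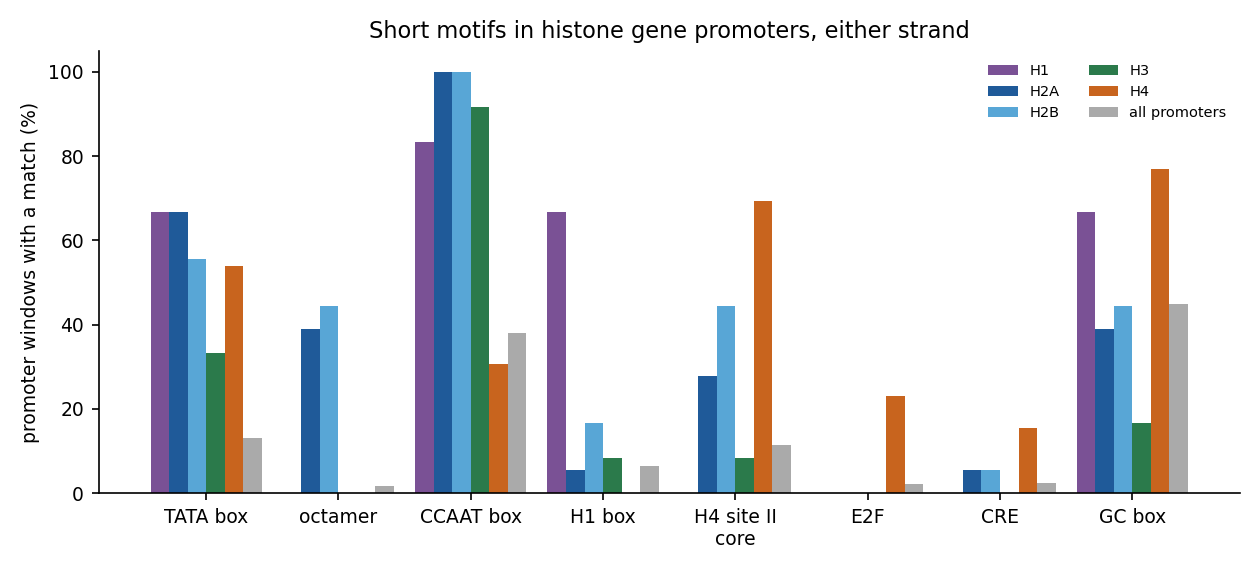
Share of promoter windows with a match to each of 8 motifs on either strand (vertical axis, %), for the 5 histone classes and for all promoters. The octamer appears in H2A and H2B alone, and the H4 site II core is most frequent in H4 (9 of 13).

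The spacing of some motifs was tight. All 9 H4 matches to GTCCGC were on the coding strand, 54 to 84 bp before the first coding base, in Hist1h4c, Hist1h4d, Hist1h4f, Hist1h4i, Hist1h4j, Hist1h4k, Hist1h4m, Hist1h4n and Hist4h4. In the 300 bp before the coding start, the H2B octamers were all on the coding strand, 79 to 164 bp before it, in 9 genes. The H1 box was on the coding strand of 5 H1 genes, 154 to 188 bp before it, Hist1h1t and Hist1h1d included.

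Footprints overlapped some of these motifs more often than others. Of the 9 H4 matches to GTCCGC, 7 lay wholly inside main peaks, and in both libraries all 7 overlapped a footprint. Over all promoters 35.2% and 38.8% of GTCCGC matches inside peaks did so. Where the match or the footprint had to lie wholly inside the other, 3 of the 7 remained in each library (Hist1h4c, Hist1h4i and Hist4h4). The other 2 matches, at Hist1h4m and Hist1h4n, were not wholly inside a peak, and a footprint overlapped that of Hist1h4m in replicate 2. The cyclic AMP response element was covered at all 4 distinct matches in peaks in replicate 1 and all 3 in replicate 2, but it was covered nearly everywhere (94.4% and 97.1% over all promoters).

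For the octamer few matches lay inside peaks. None of 6 distinct octamers inside peaks overlapped a footprint in replicate 1, and 3 of 8 did in replicate 2, at Hist1h2ab, at the pair Hist1h2ac and Hist1h2bc and at the pair Hist1h2ah and Hist1h2bk. The first 2 of these places were not inside a replicate 1 peak. Of the 5 octamers inside peaks of both libraries, none overlapped a footprint in replicate 1 and 1 did in replicate 2. Over all promoters the shares were 18.3% and 23.0%. CCAAT boxes in member promoters overlapped footprints at 41.6% of 77 distinct matches and 38.2% of 89, close to the 36.4% and 38.1% of all promoters. TATA boxes did so at 45.5% of 22 and 52.4% of 21, against 39.9% and 37.4%. GC boxes did so at 52.4% of 21 and 59.1% of 22, below the 59.4% and 65.1% of all promoters. For the H1 box it was 0 of 2 and 1 of 7, against 23.8% and 19.9%. For the E2F sequences it was 3 of 5 and 2 of 4, against 48.3% and 51.9%. Over all 8 motifs the share was 46.0% in replicate 1 and 45.2% in replicate 2. No such pooled share was computed over all promoters.

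The histone clusters held more peaks per length than the genome average; flanking regions were not compared. The 2 blocks of the Hist1 cluster held 12.2 and 10.6 peaks per 100 kb in replicate 1 and 12.5 and 13.9 in replicate 2, and the Hist2 cluster 23.9 and 21.9, against 2.69 and 4.08 over the genome. Between the outermost members of the clusters lay 47 other protein-coding genes, of which 5 had a promoter peak in both libraries (10.6%, against 58.7% of all genes). The vomeronasal receptor genes, 34 of the 47, had none in both, and of the other 13 the zinc finger gene Zfp184 had 4.0 and 3.92.

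The genes that serve histone synthesis elsewhere in the genome were open as well. All 24 genes of a list of factors for histone gene transcription and histone mRNA processing had a promoter peak in both libraries, against 58.7% of all genes. The highest mean signals were at Npat (8.72 in replicate 1 and 9.54 in replicate 2), Casp8ap2 (8.41 and 9.4), a component of histone locus bodies, and Nfya, a subunit of NF-Y (8.89 ± 0.428, SD, n = 2). HINFP, the factor of the H4 site II element, is encoded by Hinfp, which had 6.69 and 8.53. All 22 S phase and proliferation genes had one too, led by the replicative helicase genes Mcm5 (8.07 and 8.76) and Mcm4 (7.52 and 8.13) and the histone chaperone gene Asf1b (7.01 and 8.22). The medians of this list, 4.84 and 4.44, set beside 2.7 and 4.11 for the clustered histone genes, were higher in replicate 1 and differed less in replicate 2. Promoter windows of the factor list and of the S phase list had median G and C contents of 64.3% and 62.2%, against 55.7% over all genes. The part of this content in the counts was not tested.

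Among 20 genes of variant histones, which are made outside S phase or in germ cells, 11 had a promoter peak in both libraries (55.0%, against 58.7% of all genes) and 9 had none in any of the 4 lists. H2afv had 9.57 and 8.62, H2afx had 6.76 and 9.42, and H2afj had 7.19 and 7.05. H1fnt, H1foo and Hils1, linker histone genes of the germ line, had none, as did the testis members Hist1h1t, Hist1h2ba and Hist1h2aa of the clusters. All these lists are described by their counts and values only. Accessibility of a promoter is not a measure of transcription, and no RNA was measured in these libraries.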

How the data were processed

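The authors deposited, per library, 2 peak lists with a signal value per peak, a footprint list with 1 constant p-value (0.01, not used as a measurement) and per-base false discovery rates (q-values at most 0.05), all on mm10 per the accompanying notes. The sources used here do not give the caller, threshold, read filter or signal scaling. Genes and TSSs came from GENCODE M21 basic, and sequences from GRCm38.p6. The strongest main-list peak within 1 kb of a TSS gave each gene's signal, with SD over n = 2 libraries. Repeated words were counted on both strands of the genome. Python 3.11.15, numpy 2.4.6, pandas 2.3.3, numba 0.67.0 and matplotlib 3.10.9 were used, and the interval code was tested on simulated data. The members and lists were chosen with earlier results of these data known. Named genes were, per class, the 3 highest and 2 lowest mean signals, members called in 1 library or none, all members outside Hist1, and the 3 strongest and up to 3 peakless genes of each list (some marker genes are not reported here); genes illustrating a motif or pair were named after their values were seen. Alternatives changed the distance, list, assignment and overlap rule.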

Additional observations from a re-analysis of the deposited data

How the results depend on the processing

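The count of 54 members with a promoter peak in both libraries stayed between 46 and 57 over the alternatives tried: 54 within 500 bp, 53 with overlap of the 300 bp window, 57 with the wider lists, 54 with the 73221 strongest peaks of each library, 46 with each peak given to its nearest TSS only, 50 with signals at or above the library median and, chosen after seeing the data, 55 measured from the coding start and 51 without the repeated members. Of these alternatives only the wider lists have a share over all genes beside them (63.3%). Leaving out a library gave 54 to 58 members and median signals of 2.7 to 4.11. It also gave 3.11 to 3.3 footprints per member peak and 45.2% to 46.0% of motif matches in footprints. With 2 libraries, these footprint and motif values lie within 1 SD of their mean by construction. Footprints per member peak moved from 3.21 to 3.38 when partly overlapping footprints counted and to 2.83 with the wider lists. The share of motif matches in footprints moved from 45.6% to 25.0% when the match or the footprint had to lie wholly inside the other, and to 44.4% in the 300 bp before the coding start, an alternative added after seeing the data. Of 77 recomputed values, the other 73 stayed within 1.5 times the count or within 1 SD of the value (between libraries, or between members for their library difference). No paired analysis was possible because the series has 1 group. Read totals were not used here, so a missing peak cannot be told apart from low coverage.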
